A study of Mus musculus with 8 samples.

Results

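Paneth cells secrete antibacterial enzymes as well as defensins, and 8 genes of secreted lipid-cleaving enzymes and their cofactor were followed in these cells in mice fed with or without zinc depletion. The genes are the secreted phospholipases A2 Pla2g2a, Pla2g2f, Pla2g1b, Pla2g5 and Pla2g10, the pancreatic lipase-related genes Pnliprp1 and Pnliprp2, and the colipase gene Clps. They were chosen by name, with earlier results of these data known, and all 8 were found among the 55414 gene identifiers of the count table. The samples were Paneth cells that FACS sorting had purified from small intestine, 1 sample for each of 8 C57BL/6J mice, of which 4 were given standard chow (control) and 4 were given chow depleted of zinc (zinc deficient), each diet eaten freely for 7 weeks. All mice had the same genotype, and no other treatment is named. Age and sex are not given in the labels. Each mouse gave 1 RNA-seq library of 8557690 to 12648005 counts.

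Secreted phospholipases A2 are small, calcium-dependent enzymes that release a fatty acid and a lysophospholipid from phospholipids. The group IIA enzyme is best known in the gut as a Paneth cell product that attacks the membranes of bacteria, Gram-positive ones above all. Pancreatic lipase and its relatives cleave dietary fats, and colipase holds pancreatic lipase on lipid droplets that are coated with bile salts. These digestive proteins are mainly known as products of the acinar cells of the pancreas.

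The coding sequences around the active site are shown because they set Pla2g2a apart from the other phospholipases in the strain used. Each run below is spliced transcript sequence, 5′ to 3′ on the sense strand, from the GENCODE M39 canonical transcript on GRCm39. Capitals mark the codons of the calcium-binding loop at the left and of the active-site histidine with its neighbours at the right. The spans given on the genome include the intron between both exons.

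Pla2g2a: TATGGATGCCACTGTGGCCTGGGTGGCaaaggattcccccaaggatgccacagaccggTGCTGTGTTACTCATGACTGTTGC
Pla2g2f: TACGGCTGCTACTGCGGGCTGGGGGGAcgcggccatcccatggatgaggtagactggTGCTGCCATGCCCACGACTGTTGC
Pla2g1b: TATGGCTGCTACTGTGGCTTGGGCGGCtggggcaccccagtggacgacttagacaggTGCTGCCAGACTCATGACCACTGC
Pla2g5: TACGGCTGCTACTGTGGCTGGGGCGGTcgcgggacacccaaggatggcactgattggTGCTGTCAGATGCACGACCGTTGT
Pla2g10: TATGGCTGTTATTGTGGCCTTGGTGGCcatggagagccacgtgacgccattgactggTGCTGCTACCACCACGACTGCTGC

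The Pla2g2a run (chr4:138560291-138560604, plus strand, exons 3 and 4) is 82 bases long, and the other 4 are 81 bases long. They lie at chr4:138480659-138481492 on the minus strand for Pla2g2f (exons 3 and 4), at chr5:115608945-115610076 on the plus strand for Pla2g1b (exons 2 and 3), at chr4:138528745-138531873 on the minus strand for Pla2g5 (exons 3 and 4) and at chr16:13543055-13545882 on the minus strand for Pla2g10 (exons 2 and 3). Between the capitals there are 31 bases in Pla2g2a and 30 in each of the others, so that the active-site codons of Pla2g2a are 1 base out of the annotated reading frame. In that frame the first stop is codon 69, which starts 14 bases into the active-site stretch. GENCODE gives the canonical Pla2g2a transcript the type protein_coding_LoF, a loss-of-function allele, with 442 coding bases that are not a whole number of codons. C57BL/6 mice are known to carry a frameshift in this gene, so the counts below are of its RNA, and protein was not measured.

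Both lipase-related genes are shown around the active-site serine, with the 15 bases of its codon and the codons on either side in capitals and 15 bases on each side in lower case.

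Pnliprp1: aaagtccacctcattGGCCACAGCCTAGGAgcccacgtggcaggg
Pnliprp2: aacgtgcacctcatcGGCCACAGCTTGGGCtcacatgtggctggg

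The Pnliprp1 run is chr19:58721812-58721856 (exon 6) and the Pnliprp2 run chr19:58751785-58751829 (exon 5), both on the plus strand of GRCm39. The genes are neighbours, with 15516 bases between them. Their coding sequences were 65.2% identical over 1400 aligned bases, and the longest run that both transcripts share is 19 bases. That was the longest shared run among the 28 pairs of the 8 genes, with the canonical transcript of each gene compared. Their other transcripts, other genes and inexact matches were not compared, so whether reads were mistaken between genes was not tested.

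The libraries matched their label as Paneth cells. A list of 10 Paneth cell markers took 462961 to 609098 of every 1000000 counts (CPM, counts scaled to that total) in a mouse, and 7 of 8 stromal and vessel markers had no count. Markers of other epithelial cells were unequal between mice: 8 tuft cell markers summed to 348 CPM in zinc deficient replicate 3 and to 12.6 to 77.9 CPM in the others, and 8 goblet cell markers summed to 12063 CPM in zinc deficient replicate 4 and to 7094 to 10369 CPM in the others. The 8 stem and transit amplifying markers summed to 1568 to 2615 CPM in the control mice and 653 to 1295 CPM in the zinc deficient mice. Levels between mice were compared after scaling by edgeR's TMM factors (scaled CPM), which ran from 0.928 to 1.57 in control mice and from 0.719 to 1.10 in zinc deficient mice.

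Per length of exon, the 8 genes spanned more than 4 orders of magnitude. In CPM per kilobase (kb) of merged exons, as mean ± SD over 8 mice, Clps stood at 4593 ± 809 and Pnliprp2 at 2121 ± 943. Next came Pla2g2a at 550.3 ± 137 and Pla2g2f at 106 ± 19.5, followed by Pnliprp1 at 13.0 ± 8.56. Pla2g5 at 2.19 ± 0.887 and Pla2g10 at 1.81 ± 0.996 lay close together, and Pla2g1b was last at 0.147 ± 0.121. These levels depend on the length used, as merged exons are longer than the canonical transcript (4554 against 1619 bases for Pnliprp1). Per kb of canonical transcript the means were 36.7 for Pnliprp1, 4.26 for Pla2g5 and 2.15 for Pla2g10.

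Neighbours in this order were compared within mice by an exact sign-flip test (two-sided, 7 pairs, Benjamini-Hochberg adjusted). For 6 of the 7 pairs, the higher gene was higher in 8 of 8 mice (adjusted p = 0.00911, with an unadjusted p of 0.0078125, the smallest that 8 mice allow). Pla2g5 and Pla2g10 did not differ beyond their spread, with a difference of 0.36 ± 0.81 (SD) on the log2 scale, higher in 5 of 8 mice (exact sign-flip adjusted p = 0.258). That pair passed the test with the length of the longest transcript (highest adjusted p of the 7 pairs 0.0156) or of the canonical transcript (0.00781, chosen after the data were seen) in place of merged exons. The order of the means was the same in all 14 ways it was computed.

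**Figure D1:**
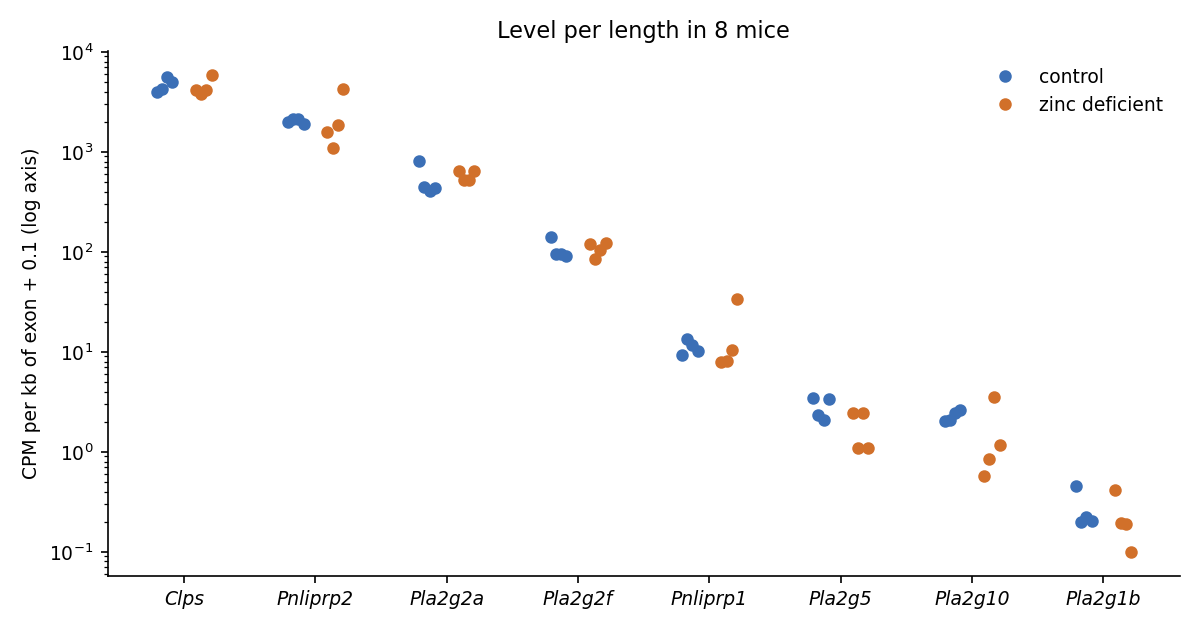
Level of each gene in each of the 8 mice, in CPM per kb of merged exons plus 0.1 on a log axis, with genes in order of their mean and 1 point per mouse (control in blue, zinc deficient in orange). The means run from 4593 for Clps to 0.147 for Pla2g1b. The points of neighbouring genes overlap for Pla2g5 and Pla2g10, and for Clps and Pnliprp2 through the highest Pnliprp2 mouse.

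Among all genes by mean CPM, Pnliprp2 ranked 15 (3405 CPM), Clps 16 (3289 CPM), Pla2g2a 58 (504 CPM) and Pla2g2f 121 (273 CPM). Together the 8 genes took 0.744% ± 0.0473 (SD, n = 4) of all counts in control mice and 0.764% ± 0.312 (SD, n = 4) in zinc deficient mice. Pnliprp2 and Clps held 88.7% of these counts. Zinc deficient replicates 1, 2 and 3 (0.642%, 0.517% and 0.677%) lay below every control mouse (0.712% to 0.814%). Zinc deficient replicate 4 (1.22%) lay above them all, so the near-equal means rest on that mouse.

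The diet comparison asked whether zinc depletion changed these transcripts. None of the 7 genes with enough counts to be tested was called by edgeR's quasi-likelihood test after Benjamini-Hochberg adjustment over 10911 genes, and 2 of them had an unadjusted p under 0.05, as had 10.5% of all genes tested. Over all genes, 44 were called (0.403%), 16 higher and 28 lower in zinc deficient mice, a split that turned to 27 higher and 9 lower without zinc deficient replicate 3. DESeq2 called 1 of the 7, Pla2g2a, against 1.34% of all genes. For 5 of the 7 the estimate was higher in zinc deficient mice and for 2 it was lower, with a median log2 fold change of 0.40 against -0.01 over all genes tested, of which 5375 were higher and 5536 lower. Without zinc deficient replicate 4, 3 were higher and 4 lower, with a median of -0.07. The estimates of the Paneth cell markers were also higher in zinc deficient mice (10 of 10, median 0.48), as were those of 6 of 8 goblet cell markers (median 0.40), while those of 8 of 8 stem and transit amplifying markers were lower (median -0.65). With all 8 mice, TMM and the expression filter, edgeR called 0 of the Paneth and goblet cell markers, and DESeq2 called 1, Mptx2. Without zinc deficient replicate 4 the goblet cell median was 0.11. The part of these cell types in the values of the 8 genes was not tested. With library size alone as the scaling, the split of the 7 genes was 4 higher and 3 lower, and the median of all genes itself moved to -0.37. Then 7 of 10 Paneth cell markers (median 0.13) and 4 of 8 goblet cell markers (median 0.11) were higher, and 8 of 8 stem and transit amplifying markers stayed lower. In none of the 8 genes did the scaled values of the diets separate, against 6.09% of all genes tested whose values did not overlap. In bulk samples such as these, fewer cells of a type cannot be told apart from less RNA per cell.

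**Figure D2:**
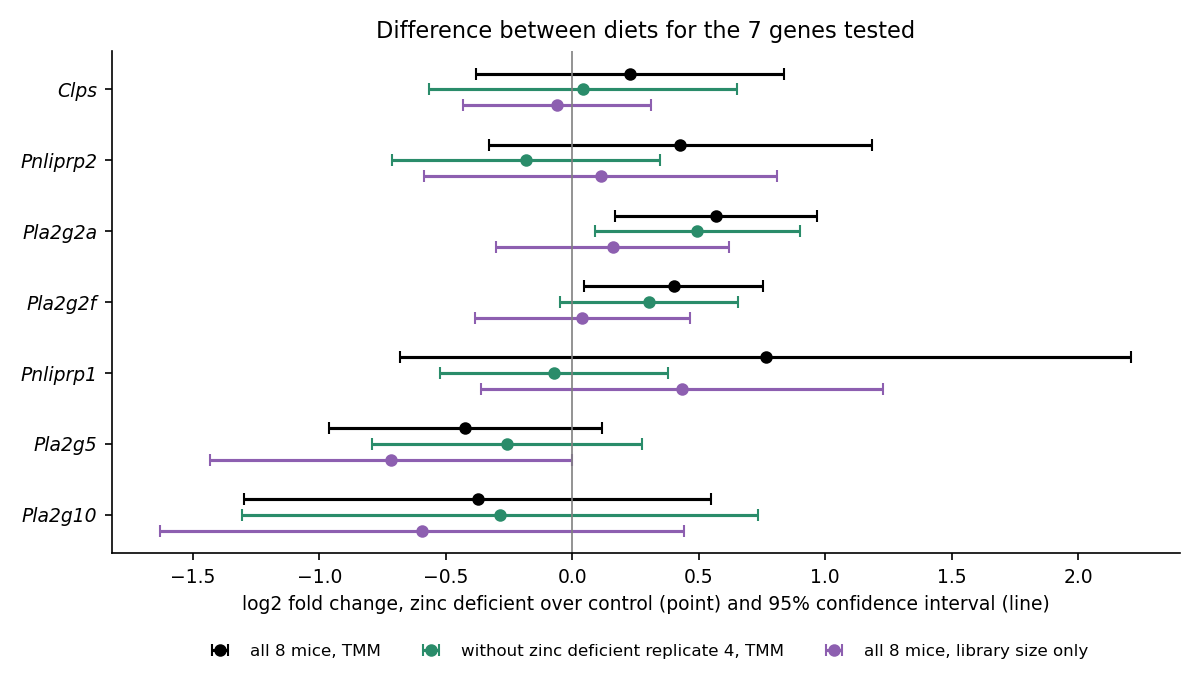
Log2 fold change of zinc deficient over control mice (x axis) for the 7 genes tested, with points for edgeR estimates and lines for 95% confidence intervals, for all 8 mice with TMM scaling (black), without zinc deficient replicate 4 (green) and with library size alone (purple). Pla2g2a and Pla2g2f have black intervals above 0 before adjustment, and the estimates of Pnliprp1 and Pnliprp2 move from 0.77 and 0.43 to -0.07 and -0.18 without replicate 4.

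Pla2g2a, the antibacterial group IIA enzyme, had the smallest p of the 8 genes. The gene (ENSMUSG00000058908) lies at chr4:138559171-138562497 on the plus strand of GRCm39, inside the span of Pla2g5 but on the opposite strand, with 0 shared exon bases. Its scaled CPM were 469, 347, 396 and 417 in control replicates 1 to 4 and 625, 659, 436 and 697 in zinc deficient replicates 1 to 4. Of the zinc deficient mice, 3 lay above every control mouse, and replicate 3 lay below control replicate 1. The log2 fold change was 0.57 ± 0.19 (SE), a ratio of 1.48 with a 95% interval of 1.12 to 1.95 (edgeR unadjusted p = 0.00778, adjusted p = 0.253), and DESeq2 gave 0.59 with an adjusted p of 0.0313. Without scaling for composition, control replicate 1 had the highest level of all 8 mice (737 CPM, others 367 to 590 CPM). The log2 fold change was then 0.16 and stood 0.53 above the median of all genes, against 0.57 above it with TMM.

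Pla2g2f, a group IIF enzyme known chiefly from the upper layers of the skin, lies on the same stretch of chromosome 4 (ENSMUSG00000028749, chr4:138477843-138484957, minus strand). It had 229, 208, 264 and 244 scaled CPM in control replicates 1 to 4 and 330.4, 299, 243 and 374 in zinc deficient replicates 1 to 4. The diets overlapped through zinc deficient replicate 3, which lay below 2 control mice. This gave a log2 fold change of 0.40 ± 0.17 (SE), a ratio of 1.32 with a 95% interval of 1.03 to 1.69 (edgeR unadjusted p = 0.0287, adjusted p = 0.404).

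Pla2g2a and Pla2g2f were compared within mice, which removes the effect of scaling. The count ratio of Pla2g2a to Pla2g2f lay between 1.501 and 2.05 in control mice and between 1.79 and 2.20 in zinc deficient mice. The log2 ratio was 0.17 higher in zinc deficient mice, which did not pass an exact permutation test over all 70 assignments of the mice (two-sided p = 0.229, adjusted over 3 ratios p = 0.386, smallest possible 0.0286). Across the 8 mice their levels gave Pearson r = 0.90 (permutation p = 0.00360) and Spearman rho = 0.74 (permutation p = 0.0458), neither of which passed adjustment over the 42 p-values of 21 pairs of genes (adjusted p = 0.0755 and 0.241). Without the 2 mice farthest from the median of Pla2g2a, r was 0.84, and within diets it was 0.34 in control and 0.91 in zinc deficient mice.

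Pla2g5, a group V enzyme best known from macrophages, and Pla2g10, a group X enzyme of the gut and airway lining that is made as a proenzyme, were scarce. Pla2g5 (ENSMUSG00000041193, chr4:138526553-138590916, minus strand) had 43 to 157 counts in a mouse. Its scaled CPM were 8.46, 7.61, 8.44 and 13.5 in control replicates 1 to 4 and 9.81, 5.42, 8.36 and 4.58 in zinc deficient replicates 1 to 4. The lowest 2 values were of zinc deficient mice and the highest was of a control mouse, with the others mixed. Its log2 fold change was -0.42 ± 0.26 (SE, edgeR adjusted p = 0.606). An antisense gene, Gm32930, shares 67 bases (1.7%) of its exons.

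Pla2g10 (ENSMUSG00000022683, chr16:13532920-13557829, minus strand) had 8 to 67 counts in a mouse, so its values carry a large counting error. Its scaled CPM were 2.10, 2.87, 4.28 and 4.44 in control replicates 1 to 4 and 0.862, 1.77, 5.34 and 2.15 in zinc deficient replicates 1 to 4. Zinc deficient replicate 3 was the highest of the 8 mice and also held the most tuft cell marker counts, whose part in this value was not tested. The log2 fold change was -0.37 ± 0.44 (SE, edgeR adjusted p = 0.827), and without that mouse it was -1.06 (adjusted p = 0.324). The antisense gene Pla2g10os shares 179 bases (10.6%) of the exons of Pla2g10, and whether the counting used strand is not given in the sources used here.

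Pla2g1b, the phospholipase A2 of pancreatic juice, was close to absent (ENSMUSG00000029522, chr5:115603154-115612783, plus strand). It had 12 counts over all 8 libraries: 4, 1, 1 and 1 in control replicates 1 to 4 and 3, 1, 1 and 0 in zinc deficient replicates 1 to 4. In that last mouse the count of 0 allows a level of up to 3 counts, or 0.237 CPM. At this depth a difference between diets was not detectable, and the gene was left out of the test by the expression filter.

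**Figure D3:**
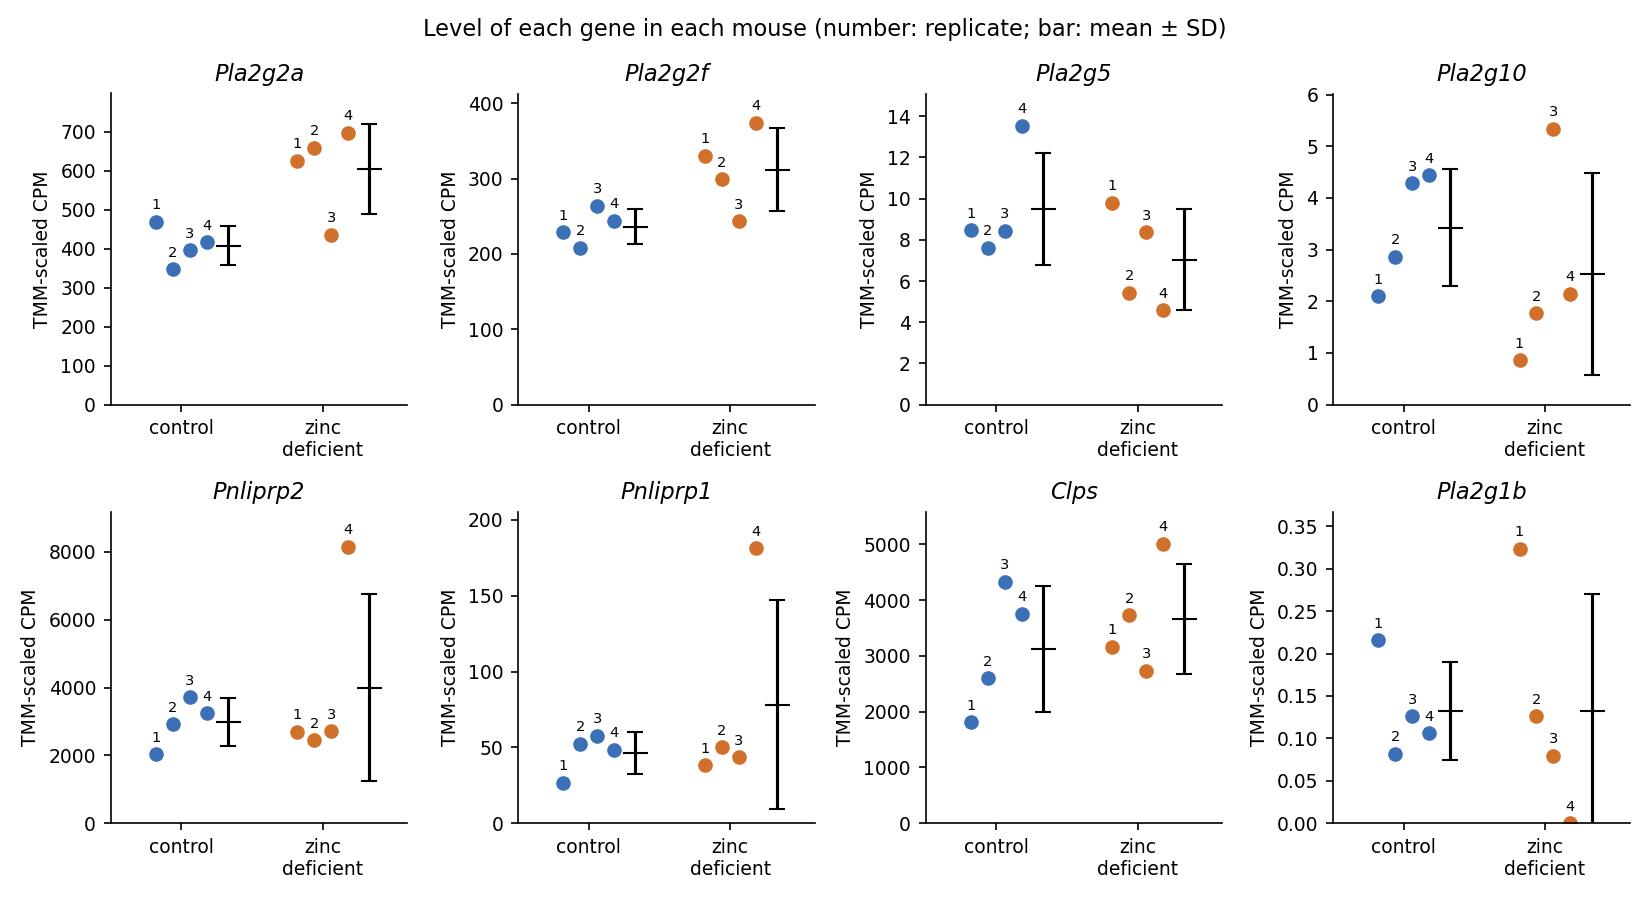
Scaled CPM (y axis, from 0) of each of the 8 genes in each mouse, with control mice in blue, zinc deficient mice in orange, the replicate number above each point and the mean ± SD (n = 4) as a black bar. In zinc deficient mice 3 of 4 points lie above all control points for Pla2g2a and Pla2g2f, and replicate 4 stands far above all others for Pnliprp2 (8149) and Pnliprp1 (181).

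The highest values of both lipase-related genes and of colipase came from the same mouse, zinc deficient replicate 4. Pnliprp2, an enzyme that cleaves plant galactolipids and phospholipids as well as fats, is ENSMUSG00000025091 (chr19:58748118-58765966, plus strand). It had 2036, 2919, 3710 and 3234 scaled CPM in control replicates 1 to 4 and 2694, 2445, 2712 and 8149 in zinc deficient replicates 1 to 4. Zinc deficient replicate 4 was 2.20-fold above the next highest mouse, a ratio that 18 of the 10911 genes reached. The other zinc deficient mice lay within the control range of scaled CPM. In unscaled CPM, zinc deficient replicates 1 to 3 had 2519, 1758 and 2970, below every control mouse (3065 to 3444). The log2 fold change was 0.43 ± 0.36 (SE, edgeR adjusted p = 0.741) with all mice and -0.18 without zinc deficient replicate 4 (adjusted p = 0.950).

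Pnliprp1, a close relative of pancreatic lipase with little known activity on fats, was found at a lower level (ENSMUSG00000042179, chr19:58717319-58732601, plus strand). Its scaled CPM were 26.8, 52.5, 57.5 and 48.3 in control replicates 1 to 4 and 38.0, 50.1, 43.3 and 181 in zinc deficient replicates 1 to 4. Zinc deficient replicate 4 was 3.15-fold above the next mouse, a ratio that 7 genes of all those tested reached. Its log2 fold change was 0.77 ± 0.60 (SE, edgeR adjusted p = 0.740) and turned to -0.07 without that mouse (adjusted p = 0.9749). The same mouse had the highest sum of goblet cell markers and the lowest sum of stem and transit amplifying markers (653 CPM). The goblet cell markers did not all go the same way in it. Muc2, Clca1, Spink4, Agr2 and Retnlb were highest there. By contrast, Fcgbp (111 scaled CPM) and Zg16 (0.374) were the lowest of the 8 mice, and Tff3 (691) was above control replicate 1 (365) only. It also had the highest sum of 26 pancreatic acinar markers (726 CPM, others 357 to 633 CPM), with Sycn, a zymogen granule protein gene, at 7.10 scaled CPM (others 0.630 to 1.80) and Rnase1 at 843 (others 371 to 648). The part of any of these cell types in the Pnliprp1 and Pnliprp2 values was not tested.

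Clps, which encodes colipase, varied less over all 8 mice (ENSMUSG00000024225, chr17:28777123-28787857, minus strand). The SD of scaled CPM was 30.2% of the mean, against 55.9% for Pnliprp2 and 78.8% for Pnliprp1. In control mice alone Clps varied more for its mean (3123 ± 1135, SD, n = 4) than Pnliprp2 (2975 ± 706) and Pnliprp1 (46.3 ± 13.5). The scaled CPM of Clps were 1810, 2594, 4332 and 3754 in control replicates 1 to 4 and 3163, 3732, 2735 and 5007 in zinc deficient replicates 1 to 4. Zinc deficient replicate 4 was again the highest, by 1.16-fold over control replicate 3, and control replicate 1 the lowest. For Clps the log2 fold change was 0.23 ± 0.29 (SE, edgeR adjusted p = 0.849) and had the opposite sign, -0.06, with library size alone, where it stood 0.31 above the median of all genes.

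Counts of the 3 genes were set against each other within mice. The count ratio of Pnliprp2 to Pnliprp1 was 55.6 to 76.0 in control mice and 44.9 to 70.8 in zinc deficient mice, a log2 difference of -0.23 (exact permutation test, p = 0.257, adjusted p = 0.386). Clps to Pnliprp2 was 0.889 to 1.17 in control mice and 0.614 to 1.53 in zinc deficient mice, a log2 difference of 0.01 (exact permutation test, p = 0.943, adjusted p = 0.943). In zinc deficient replicate 4, both of these ratios were the lowest of all 8 mice, at 44.9 and 0.614.

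Across mice, Pnliprp1 and Pnliprp2 gave Pearson r = 0.97 (permutation p = 0.00188, adjusted p = 0.0755) and Spearman rho = 0.81 (permutation p = 0.0218, adjusted p = 0.221). The r was 0.82 without zinc deficient replicate 4 and 0.58 without that mouse and control replicate 1. The relation thus rests in part on these mice. Within diets r was 0.95 in control and 0.97 in zinc deficient mice. For every pair r was taken on scaled CPM, where all genes of a mouse share 1 factor. The part of that scaling in r was not tested. None of the 21 pairs passed the adjusted threshold by either measure.

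**Figure D4:**
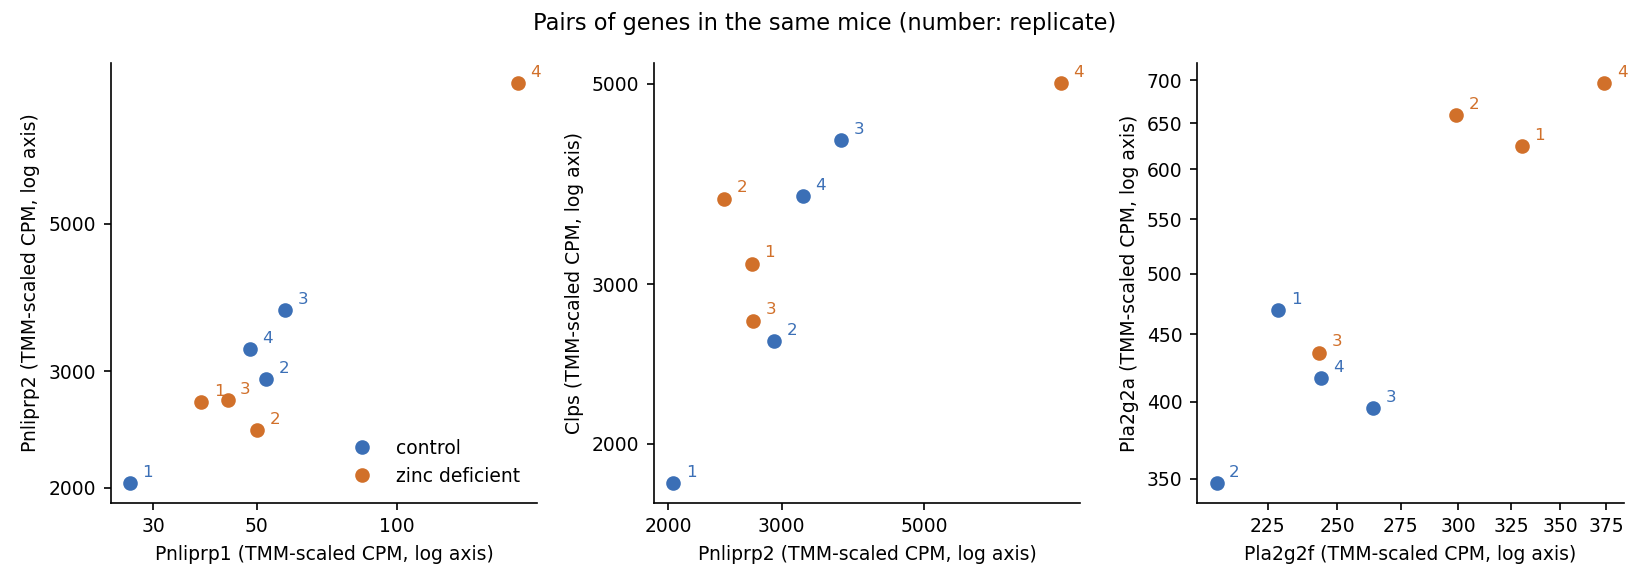
Scaled CPM of Pnliprp2 against Pnliprp1, Clps against Pnliprp2 and Pla2g2a against Pla2g2f in each mouse, on log axes, with control mice in blue, zinc deficient mice in orange and the replicate number beside each point. Zinc deficient replicate 4 lies apart in the left and middle panels, and in the right panel zinc deficient replicates 1, 2 and 4 lie above the other 5 mice.

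Most markers of pancreatic acinar cells were absent from the libraries that held the digestive genes. Of 26 acinar markers, 17 had no count in any of the 8 mice, among them Cpa1, Cela3b, Gp2 and the acinar transcription factor gene Ptf1a. The trypsinogen and amylase genes of the list were also at 0, although near-identical copies in these families could lose reads in the counting. The markers with counts were led by Rnase1, a secreted ribonuclease, at 533 ± 120 CPM (SD, n = 8), and Zg16, which is also on the goblet cell list, at 10.98 ± 10.1 CPM. The list summed to 556 to 633 CPM in control mice and 357 to 726 CPM in zinc deficient mice, and 0 of the 5 markers tested were called by edgeR or DESeq2.

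Pancreatic lipase itself (Pnlip), the partner of colipase, had 0 counts in all mice, as did bile salt-stimulated lipase (Cel), gastric lipase (Lipf), Lipi and Clpsl2. Of the 10 other lipase genes listed, Liph, which makes lysophosphatidic acid from phosphatidic acid, had 63.9 ± 12.7 CPM (SD, n = 8), and the endothelial lipase gene Lipg had 1.45 CPM. Neither was called by diet. The scaled values of Liph did not overlap between diets (54.3 to 59.4 in control mice and 66.0 to 70.8 in zinc deficient mice, log2 fold change 0.27, edgeR adjusted p = 0.463), but unscaled CPM did overlap and the estimate was -0.08 with library size alone.

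**Figure D5:**
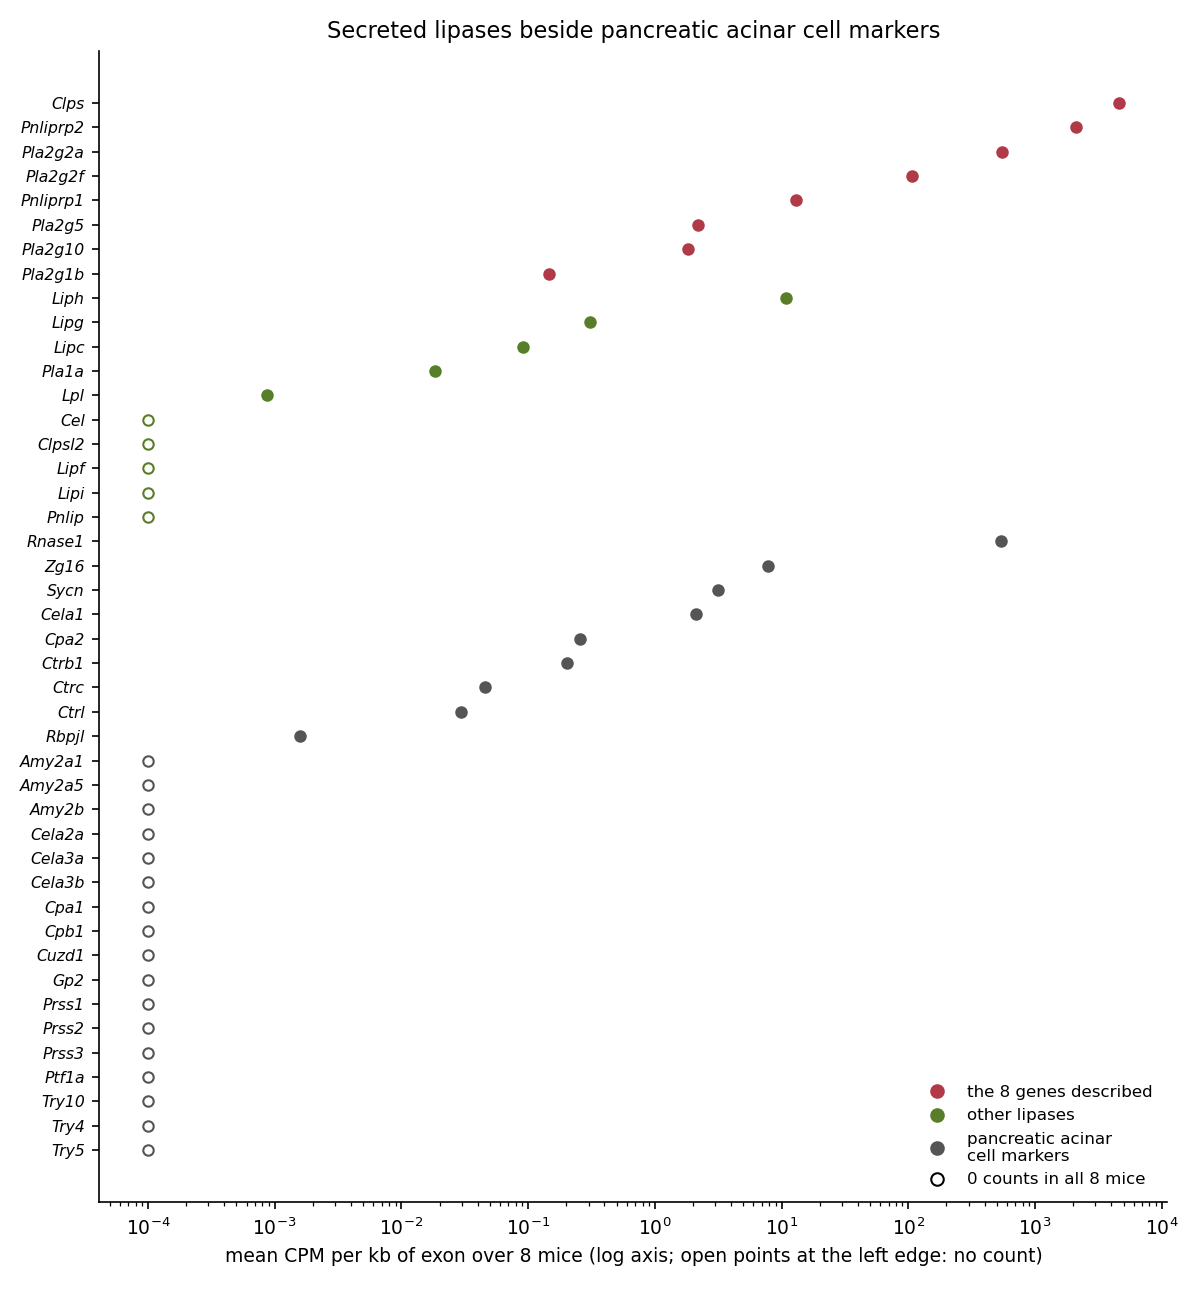
Mean CPM per kb of merged exons over 8 mice (x axis, log) for the 8 genes described (red), other lipase genes (green) and pancreatic acinar cell markers (grey), with open points at the left edge for genes with 0 counts in all mice. Clps and Pnliprp2 lie at the right end, while Pnlip, Cel and 17 of the 26 acinar markers have no count.

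Of the 6 other secreted phospholipases A2, 3 were tested and 0 were called. Pla2g12a, an atypical group XII enzyme, was the most abundant, at 36.8 ± 5.35 CPM (SD, n = 8). Its scaled values were 27.1 to 35.1 in control mice and 36.5 to 52.3 in zinc deficient mice, without overlap, yet it did not pass the test (log2 fold change 0.38, edgeR adjusted p = 0.376), and unscaled CPM overlapped, with an estimate of 0.03. The group XII relative Pla2g12b had 1.95 CPM and Pla2g2c 1.01 CPM, with log2 fold changes of 0.62 (edgeR adjusted p = 0.681) and 0.53 (adjusted p = 0.799).

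Genes that act on phospholipids inside the cell or on the products of these enzymes gave few calls. Of 17 intracellular phospholipase A2 genes, 11 were tested and 0 called, 6 higher and 5 lower, with a median log2 fold change of 0.01. Of 12 genes of the phospholipase A2 receptor and lysophospholipid handling, 5 were tested and 0 called, with a median of 0.16. Of 16 genes of eicosanoid synthesis, 9 were tested and 0 called, 7 higher and 2 lower, with a median of 1.12. Without zinc deficient replicate 3, 4 were higher and 5 lower, with a median of -0.06. In that group Alox5, the 5-lipoxygenase gene of leukotriene synthesis, had 37.0 scaled CPM in zinc deficient replicate 3 and 0.505 to 7.85 in the other mice. Ptgs1, Hpgds, Alox5ap and Ltc4s were also highest in that mouse, by 2.44-fold (Ltc4s) to 4.81-fold (Hpgds) over the next. That mouse held the highest tuft cell marker sum (348 CPM), whose part in these values was not tested. DESeq2 also called none of the genes in these 3 groups.

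Of 10 intracellular neutral lipase genes, 9 were tested and 1 was called. That gene was Ces1d, a carboxylesterase that hydrolyses triglycerides, and its estimate was lower in zinc deficient mice. It was scarce, with 403 counts over all 8 libraries, and its value in zinc deficient replicate 4 (0.237 CPM) is that of 3 counts. Its scaled CPM were 8.78, 6.14, 6.30 and 5.18 in control replicates 1 to 4 and 2.80, 1.77, 1.83 and 0.280 in zinc deficient replicates 1 to 4, with no overlap. Its log2 fold change was -2.001 ± 0.40 (SE, edgeR adjusted p = 0.0376), and with library size alone the adjusted p was 0.0707. Without the robust option it was not called. With 1 mouse left out it was called in 2 of 8 fits (edgeR adjusted p from 0.0317 to 0.147), those without zinc deficient replicate 1 or 4. Among the marker lists, edgeR called Top2a, of the stem and transit amplifying list, with TMM scaling and its expression filter (log2 fold change -1.18, adjusted p = 0.0230), and in 4 of 8 fits with 1 mouse left out. With library size alone the adjusted p of Top2a was 0.115, and Mptx2 and Olfm4 were called instead (both 0.0284). DESeq2 called Top2a, Mptx2 and Olfm4 among the marker lists.

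The genes whose levels followed each of the 7 tested genes most closely over the 8 mice were taken by Pearson r of log2(scaled CPM + 1), as a description. They were Parp14, Dnah17 and Ttc1 for Pla2g2a (r = 0.96 to 0.97), and Serpinf2, Orai1 and Eif1 for Pla2g2f (0.97 to 0.98). For Pla2g5 they were Chd9, 2410022M11Rik and Epha2 (0.96 to 0.99), and for Pla2g10 Siae, Cyb5r3 and H2ac25 (0.92 to 0.93). Pnliprp1 was followed by Cope, Apoh and Pnliprp2 (0.97 to 0.98), Pnliprp2 by Ldlrad4, Apoh and Pnliprp1 (0.97 to 0.98), and Clps by Ndufa2, Spink4 and Bola2 (0.98 to 0.99). Apoh, the gene of beta-2 glycoprotein 1, was the only gene outside the 8 that stood in more than 1 of these lists. These are the highest of all genes tested, given with no test, and both Pnliprp1 and Pnliprp2 have zinc deficient replicate 4 far from their other mice. Spink4, of which Clps shared the pattern, is on the goblet cell list and was present at 6129 CPM.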

How the data were processed

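RNA was taken from FACS-sorted Paneth cells of 8 mice and sequenced after TruSeq stranded mRNA library preparation. The values deposited by the authors are raw counts (whole numbers) for each Ensembl gene, not normalized. The submitters' processing notes name FastQC 0.12.0, STAR 2.7.0a, DESeq2 and mm39. The counting program, its use of strand and its treatment of multi-mapping reads are not stated by the labels or the methods. Groups and replicate numbers came from the sample labels.

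Identifiers were named with GENCODE M39 on GRCm39, where 54749 were found and 665 were not. Counts were compared between diets with edgeR 4.0.16 in R 4.3.3 (TMM, its expression filter, which kept 10911 genes, robust quasi-likelihood test, Benjamini-Hochberg threshold 0.05). DESeq2 1.42.0 was the alternative. Levels between genes were compared as log2(CPM per kb + 0.1) with exact sign flips over mice, and count ratios with exact permutations. Other steps used Python 3.11.15, numpy 2.4.6, scipy 1.17.1, pandas 2.3.3, biopython 1.88 and matplotlib 3.10.9. Simulated counts with known changes were used to test the edgeR script.

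The labels call the samples biological replicates. No 2 libraries of a diet agreed within sampling noise (chi-square per degree of freedom 5.43 to 55.1). Depth was 8557690 to 12648005 counts per mouse, so that 3 counts equal 0.237 to 0.351 CPM, a limit that covers counting error only. The 8 genes and all lists were chosen with earlier results of these data known. Named are the 8 genes, listed genes called by diet, other secreted phospholipases A2 and lipases of at least 1 CPM, the top 2 acinar markers and the 3 genes most alike to each tested gene. Acinar markers and lipases at 0, Sycn, Alox5, Ptgs1, Hpgds, Alox5ap, Ltc4s, Mptx2, Olfm4 and Spink4's level were chosen after their values were seen. So were the goblet cell and acinar markers named for zinc deficient replicate 4. Alternatives cover scaling, filter, test, dispersion, replicate block, gene length, pseudocount and each mouse left out.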

Additional observations from a re-analysis of the deposited data

Results flagged for a closer look

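In 14 groups of 4 mice (7 tested genes, 2 diets), 3 values stood apart from the other 3 mice of their diet by Dixon's test at its 95% limit, which chance passes in about 1 of 20 groups. They were Pnliprp2 in zinc deficient replicate 4 (8149 scaled CPM, others 2445 to 2712), Pnliprp1 in the same mouse (181 scaled CPM, others 38.0 to 50.1), and Pla2g5 in control replicate 4 (13.5 scaled CPM, others 7.61 to 8.46). The raw counts behind them were 87240, 1942 and 128. Pnliprp1 and Pnliprp2 were flagged in 1 and the same library, so these are not independent flags. The causes were not tested.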

How the results depend on the processing

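Of 105 alternative estimates for the 7 tested genes, 101 kept their direction and their side of the threshold. Pla2g2a passed it with DESeq2 (log2 fold change 0.59, adjusted p = 0.0313), so that DESeq2 called 1 of the 7 genes where edgeR called 0 under every other setting. Its adjusted p in the other edgeR fits ran from 0.108 to 0.648. The direction turned for Pnliprp1 (-0.0715) and Pnliprp2 (-0.18) without zinc deficient replicate 4, and for Clps (-0.0615) with library size alone.

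Leaving out each mouse in turn gave log2 fold changes of 0.49 to 0.70 for Pla2g2a, 0.30 to 0.51 for Pla2g2f, -0.62 to -0.21 for Pla2g5, -1.06 to -0.09 for Pla2g10, -0.0715 to 0.99 for Pnliprp1, -0.18 to 0.60 for Pnliprp2 and 0.04 to 0.43 for Clps. The count of all genes called was 44, and it was 11 with library size alone, 251 of 18839 genes with no filter, 146 with DESeq2, 25 without the robust option and 8 to 36 with 1 mouse left out. The split of 16 higher and 28 lower was 27 and 9 without zinc deficient replicate 3 and 14 and 11 without the robust option. The count was 8 without control replicate 2 and without control replicate 4, 26, 13 and 17 without zinc deficient replicates 1, 2 and 4. Without the filter, 2 genes of the related lists were called (Pla2g4c and Ces1d) in place of 1. The causes were not tested.

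Same-numbered mice correlated at 0.0254 to 0.0900, all below 0.1, so the numbers were not taken as pairs. For control replicates 1, 2 and 4 the same-numbered zinc deficient mouse still gave the highest correlation of any number. For control replicate 3 another mouse gave a higher one (0.145 against 0.0254). With the number as a replicate block, 53 genes were called and 0 of the 7 (log2 fold changes 0.55 for Pla2g2a, 0.39 for Pla2g2f, -0.44 for Pla2g5, -0.61 for Pla2g10, 0.48 for Pnliprp1, 0.25 for Pnliprp2 and 0.28 for Clps).

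Depth limits Pla2g1b (12 counts in all) and Pla2g10 (8 to 67 counts in a mouse). Group sizes of 4 leave wide intervals, and a p above the threshold does not show that a gene did not differ.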
